A study of Mus musculus with 6 samples.

Results

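Cathepsins are proteases of lysosomes and secretory granules, and cystatins and stefins are the proteins that inhibit those cathepsins that have a cysteine in the active site. Of 18546 genes named on the array, 32 belong to these families, 22 cathepsins and 10 cystatins or stefins, carried by 33 probes. They were chosen by symbol alone: Cts followed by 1 letter or a number, Cst followed by a number, Csta, Cstb, and Stfa with a number. All 32 genes had a value on all 6 arrays and no filter on low signal was applied. Csta, Stfa1, Stfa2 and Cst8 are not analysed here.

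The study compared total RNA from mouse testis and epididymis with that of the stromal vascular fraction (SVF), the cells left when adipocytes are removed from digested fat. The labels used here state no strain, age, treatment or number of animals for any tissue. The series describes 3 RNA samples, 1 per tissue, and each pair of tissues was hybridised on 2 two-colour arrays with Cy3 and Cy5 exchanged. The 2 arrays of a dye swap are therefore repeat hybridisations of the same RNAs: there is no test between tissues, and each ± below is the SD of 2 hybridisations (n = 2), which holds no difference between animals. The deposited value of a probe is a log ratio, read here as log2 of Cy5 over Cy3. No source used here gives the base or the direction. The direction is likely rather than stated, because known tissue markers follow it. Every fold below rests on the base: read as natural logarithms, Ctsd would be 3.22-fold instead of 2.25-fold higher in epididymis than in SVF, and Ctss 374-fold instead of 60.7-fold lower in testis than in SVF. A gene was called higher in a tissue when both arrays gave at least 2-fold (a log2 ratio of at least 1) in that direction. Below, the first array of a dye swap is the one with the numerator tissue in Cy5.

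The 2 arrays of a dye swap correlated across all named genes (Pearson's r 0.88 for testis over SVF, 0.71 for epididymis over SVF and 0.81 for epididymis over testis). Genes are not independent replicates in these values. The median SD between the arrays was 0.35, 0.44 and 0.33 over the 32 genes, in the same order of comparisons, against 0.33, 0.37 and 0.35 over all named genes. The tissue labels were set beside marker lists. This is no independent check, because the direction of the ratios leans on such markers too. The lists were also chosen with earlier results of these data known. Of 12 late spermatid genes, 11 were called higher in testis than in SVF (background over all named genes 20.7%), as were all 5 Leydig cell genes. All 9 epididymal principal cell genes were called higher in epididymis than in SVF (background 10.2%) and than in testis (background 14.3%). Of 9 fibroblast and mesenchymal progenitor genes, 8 were called higher in SVF than in testis (background 16%) and 7 higher in SVF than in epididymis (background 8.68%). Other lists were less uniform. Of 10 Sertoli cell genes, 4 were called higher in testis than in SVF, and of 6 epididymal clear cell genes, 2 higher in epididymis than in SVF. Neither list had a call the other way there. Of 7 adipocyte genes, 6 were called higher in SVF than in testis and 3 higher in SVF than in epididymis. The ratios hold no signal level, so no gene can be said to be above or below background in a tissue. In whole tissue fewer cells of a type and less RNA per cell cannot be told apart.

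Cathepsins B, C, F, H, K, L, O, S, W and Z are papain-like cysteine proteases, and W is counted below as lysosomal by family alone. The others are made as proenzymes, sorted to lysosomes and activated at low pH. Macrophages and other antigen-presenting cells hold much of them, and cathepsin S trims the invariant chain of MHC class II there. Cystatin C, the product of Cst3, is secreted and binds cysteine cathepsins outside the cell, while stefin B, the product of Cstb, does so in the cytosol. A further branch of type 2 cystatins, the CRES (cystatin-related epididymal spermatogenic) subgroup, is known in mouse for expression in the male reproductive tract and lacks some of the residues that bind papain-like enzymes.

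Most type 2 cystatin genes lie side by side on mouse chromosome 2, and some neighbours there had opposite tissue patterns. The 250 bases before the annotated start are therefore shown for 4 of them, together with those of Ctsd and Ctsc, a lysosomal gene low in testis and the cathepsin gene with the largest ratio in size. Sequences are from RefSeq, build GRCm38.p6, written 5' to 3' on the strand of the gene. Capitals mark 5 motifs on either strand: TGACGTCA, the cyclic AMP response element; TCACGTGA, the core of the CLEAR element of lysosomal genes; GAGGAAGT, a site for the myeloid factor PU.1; TATAAA; and AGAACA, a hexamer bound by the androgen receptor.
Cst13, chr2:148819849-148820098, plus strand: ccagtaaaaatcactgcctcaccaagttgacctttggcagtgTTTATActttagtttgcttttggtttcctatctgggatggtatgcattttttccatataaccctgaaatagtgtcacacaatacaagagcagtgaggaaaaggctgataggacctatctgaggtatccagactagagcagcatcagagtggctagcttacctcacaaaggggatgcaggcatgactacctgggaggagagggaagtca
Cst9, chr2:148834897-148835146, plus strand: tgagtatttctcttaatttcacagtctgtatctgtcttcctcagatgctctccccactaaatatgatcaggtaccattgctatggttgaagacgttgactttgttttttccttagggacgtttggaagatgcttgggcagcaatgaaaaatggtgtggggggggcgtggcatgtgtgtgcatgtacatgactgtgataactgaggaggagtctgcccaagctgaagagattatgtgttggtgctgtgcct
Cst12, chr2:148789115-148789364, plus strand: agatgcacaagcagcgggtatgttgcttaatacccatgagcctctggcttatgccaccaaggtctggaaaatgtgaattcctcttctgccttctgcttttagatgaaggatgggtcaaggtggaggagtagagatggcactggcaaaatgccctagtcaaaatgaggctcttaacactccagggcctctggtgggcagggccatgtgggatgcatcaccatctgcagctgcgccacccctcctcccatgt
Cst3, chr2:148875513-148875762, minus strand: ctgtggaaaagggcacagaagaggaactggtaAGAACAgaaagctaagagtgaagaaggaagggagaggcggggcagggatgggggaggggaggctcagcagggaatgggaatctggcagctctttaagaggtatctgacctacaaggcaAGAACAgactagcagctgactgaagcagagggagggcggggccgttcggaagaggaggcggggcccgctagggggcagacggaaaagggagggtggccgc
Ctsd, chr7:142387828-142388077, minus strand: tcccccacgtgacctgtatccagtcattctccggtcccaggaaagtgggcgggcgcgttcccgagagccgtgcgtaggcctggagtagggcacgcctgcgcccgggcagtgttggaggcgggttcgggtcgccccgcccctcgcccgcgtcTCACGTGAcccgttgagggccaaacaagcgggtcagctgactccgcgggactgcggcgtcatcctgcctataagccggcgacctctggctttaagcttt
Ctsc, chr7:88277835-88278084, plus strand: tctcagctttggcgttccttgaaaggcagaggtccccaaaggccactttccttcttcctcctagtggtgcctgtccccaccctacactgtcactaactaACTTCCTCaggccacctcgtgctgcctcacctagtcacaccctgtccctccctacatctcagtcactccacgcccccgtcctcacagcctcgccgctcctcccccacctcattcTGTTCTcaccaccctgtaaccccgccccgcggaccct

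A promoter was found for 25 of the 32 genes (26 promoters), and Cst11, Cst6, Cstb, Ctsb, Ctse, Ctsh and Ctsw are only named here. The CLEAR core stood in 2 of the 26, those of Ctsd (-99 to -92 from the start) and Ctsa (-13 to -6 in 1 of its 2 promoters), where 0.785% of 32851 promoters in the table hold it. The PU.1 motif stood in 2, those of Ctsc (-151 to -144) and Cts6, where 2.44% of promoters hold it. The hexamer AGAACA stood in 6 (background 16.1%) and TATAAA in 6 (background 12.4%). The cyclic AMP response element stood in none of the 26 (background 1.55%). The windows of Cst9 and Cst12 hold none of the 5 motifs, and that of Cst13 holds TATAAA on the other strand at -208 to -203. These matches are letters in a window and say nothing of binding.

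Of the 22 cathepsins, 10 were called lower in testis than in SVF and none higher, 1 was called higher and 6 lower in epididymis than in SVF, and 5 were called higher and none lower in epididymis than in testis. The 10 cystatins and stefins went both ways in each comparison. In testis over SVF, 3 of the 32 genes (9.38%) were called higher in testis, where the background over all named genes was 20.7%, and 13 (40.6%) were called higher in SVF, against a background of 16%. In epididymis over SVF, 6 (18.8%) were called higher in epididymis (background 10.2%) and 7 (21.9%) higher in SVF (background 8.68%). In epididymis over testis, 9 (28.1%) were called higher in epididymis (background 14.3%) and 2 (6.25%) higher in testis (background 18%). The median log2 ratio over the 32 genes was -0.58, -0.38 and 0.34 in these comparisons, and over all named genes it was 0.00, 0.07 and -0.00. In at least 1 comparison 18 of the 32 genes were called (56.2%, background 47.1%). All 3 comparisons share the same 3 RNAs, so their calls are not independent of each other. Calling from 1 array instead of both would give 10 or 11 genes higher in SVF than in epididymis, 4 or 5 higher in testis than in SVF, 11 or 14 higher in epididymis than in testis, and 4 higher in testis than in epididymis.

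**Figure D1:**
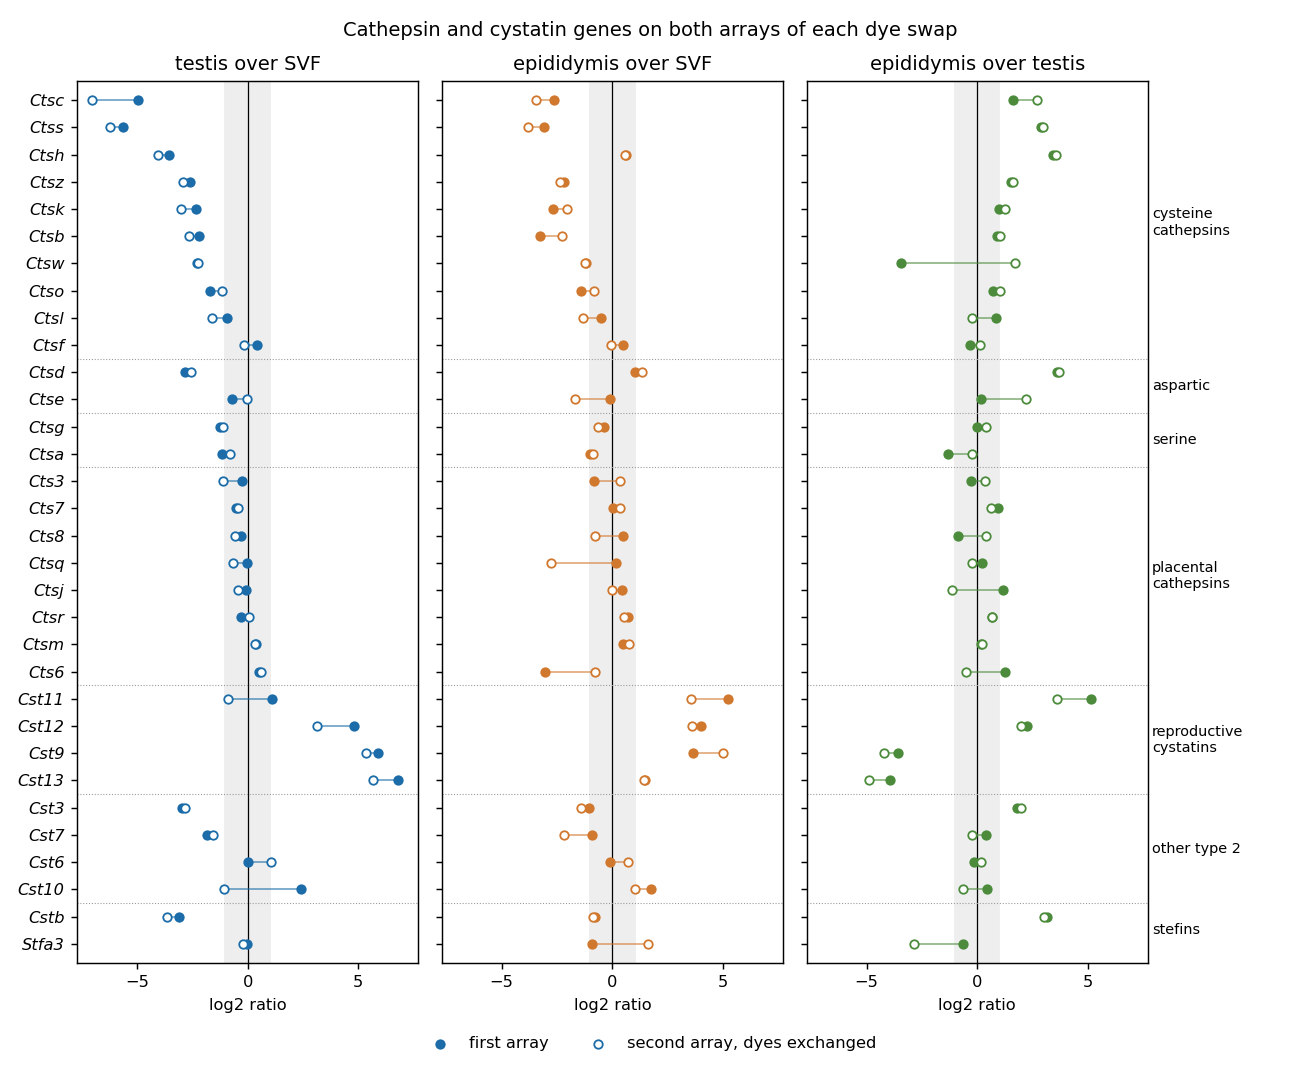
Log2 ratios (horizontal axes) of the 32 genes on the first array (filled) and the second array with dyes exchanged (open) of each dye swap, grouped by role. The grey band is less than 2-fold. Ctsc and Ctss lie farthest left in testis over SVF, Cst13 and Cst9 farthest right, and the 8 placental cathepsins have no pair of points beyond the band on the same side.

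Of the 10 lysosomal cysteine cathepsins, 8 (80%) were called lower in testis than in SVF (background over all named genes 16%). None was called higher (background 20.7%), and the median log2 ratio was -2.54. Cathepsin C, a dipeptidyl peptidase that activates granule serine proteases, had log2 ratios of -4.94 and -7.01 in testis over SVF. Cathepsin S had -5.61 and -6.23. Both arrays thus put them far below SVF, at 62.9-fold (-5.98 ± 1.46) and 60.7-fold (-5.92 ± 0.44) lower in testis. Among all 18546 genes, these were the 25th and 27th lowest mean ratios of testis over SVF. Cathepsin H, an aminopeptidase, stood at -3.57 and -4.03, or 13.9-fold lower in testis. Cathepsin Z, a carboxypeptidase, stood at -2.60 and -2.93 (6.80-fold). Cathepsin K, the collagen-degrading enzyme known from osteoclasts, stood at -2.32 and -2.99 (6.30-fold). The remaining calls were smaller: Ctsb, the abundant lysosomal cathepsin B, at -2.41 ± 0.32, Ctsw, a cathepsin of cytotoxic lymphocytes, at -2.25 ± 0.02, and Ctso at -1.43 ± 0.39. Cathepsin L, at -0.92 and -1.60, passed the threshold on 1 array only. Cathepsin F was near 0, at 0.44 and -0.16.

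In epididymis over SVF, 6 of the 10 (60%, background 8.68%) were called higher in SVF and none higher in epididymis (background 10.2%). The median was -1.75. Cathepsin S had log2 ratios of -3.10 and -3.79 and was 10.9-fold lower in epididymis. Cathepsin C, at -2.63 and -3.45, was 8.22-fold lower, and cathepsin B, at -3.27 and -2.28, was 6.83-fold lower. These and cathepsins K and Z were each below SVF by more than 4-fold on both arrays. Cathepsin K stood at -2.36 ± 0.45, cathepsin Z at -2.28 ± 0.14 and Ctsw at -1.22 ± 0.04. Cathepsin H differed from these, at 0.61 and 0.56, a ratio above 0 on both arrays that was not called.

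In epididymis over testis, 4 of the 10 (40%, background 14.3%) were called higher in epididymis and none higher in testis (background 18%). The median was 1.03. Cathepsin H stood at 3.41 and 3.54, or 11.1-fold higher in epididymis. Cathepsin S stood at 2.89 and 2.96 (7.60-fold), cathepsin C at 1.62 and 2.70 (4.47-fold), and cathepsin Z at 1.52 and 1.61 (2.95-fold). All 4 were close on their 2 arrays except cathepsin C. Cathepsins K and B lay near the threshold, at 0.97 and 1.24 and at 0.88 and 1.02, and were not called. Ctsw had -3.43 on the first array but 1.68 on its exchange, a disagreement of sign (SD 3.61) that leaves its epididymis and testis levels without an order.

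Ctso was the only one of the 32 genes with more than 1 probe, and its probes differed. The probe with a RefSeq transcript gave -0.45 ± 0.40 in testis over SVF and -0.30 ± 0.85 in epididymis over SVF. The other probe gave -2.42 ± 0.38 and -1.96 ± 0.03. The call of Ctso in testis over SVF comes from the mean of both, and the first probe alone does not give it. In epididymis over testis the probes lay close together, at 0.92 ± 0.35 and 0.80 ± 0.07.

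Cathepsin D, the main aspartic protease of the lysosome, went the other way from most cysteine cathepsins in epididymis. It had log2 ratios of -2.84 and -2.55 in testis over SVF, 1.01 and 1.33 in epididymis over SVF, and 3.58 and 3.68 in epididymis over testis. It was thus 6.47-fold lower in testis than in SVF, 2.25-fold higher in epididymis than in SVF and 12.4-fold higher in epididymis than in testis. All 3 differences were called, the middle one just past the threshold, and it is the one of the 3 that median centring of each array removes. The second aspartic cathepsin, Ctse, an enzyme of epithelial and immune cells, was called in no comparison. Its arrays in epididymis over testis gave 0.16 and 2.18. Of the serine cathepsins, Ctsg, a protease of neutrophil and mast cell granules, stood at -1.26 and -1.12 in testis over SVF and was called higher in SVF, 2.28-fold. It was not called in the other comparisons. Ctsa, the carboxypeptidase that protects the lysosomal neuraminidase and galactosidase, lay at the threshold, at -0.98 ± 0.24 in testis over SVF and -0.95 ± 0.08 in epididymis over SVF, and was not called.

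The 8 placental cathepsins, Cts3, Cts6, Cts7, Cts8, Ctsj, Ctsm, Ctsq and Ctsr, form a rodent-specific cluster on mouse chromosome 13 known from trophoblast. None was called in any comparison, where 47.1% of all named genes were called in at least 1. Their median log2 ratios were -0.30 in testis over SVF, 0.01 in epididymis over SVF and 0.12 in epididymis over testis. The most extreme means were those of Cts6 and Ctsq in epididymis over SVF, and both rest on 1 array: Cts6 had -3.07 and -0.80, and Ctsq 0.14 and -2.77. Of 8 measured trophoblast genes, 1 was called higher in testis than in SVF (12.5%, background 20.7%), the placenta-enriched gene Plac1 (2.22 ± 0.48). Another was called higher in SVF (12.5%, background 16%), the prolactin-like gene Prl2b1 (-6.73 ± 0.24). Prl2b1 was also called higher in SVF than in epididymis (-2.18 ± 0.14; 12.5%, background 8.68%). In epididymis over testis, Prl2b1 was called higher (5.05 ± 0.06; 12.5%, background 14.3%) and Plac1 lower (-2.62 ± 0.10; 12.5%, background 18%). These cathepsins are close copies of each other, and what each probe binds among them was not tested.

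The reproductive type 2 cystatins Cst9, Cst11, Cst12 and Cst13 split by tissue. Cst13, also known as cystatin T and described from mouse testis, had log2 ratios of 6.80 and 5.68 in testis over SVF, the 17th highest mean among all named genes, and was 75.4-fold higher in testis. In epididymis over testis it stood at -3.94 and -4.91, or 21.5-fold lower in epididymis. Cst9 (testatin), known from mouse fetal testis and adult germ cells, stood at 5.90 and 5.34 in testis over SVF (49.1-fold higher in testis) and at -3.56 and -4.20 in epididymis over testis (14.8-fold lower in epididymis). Both were highest in testis on every array that carried it. In epididymis over SVF, Cst13 was called at 1.48 and 1.44 (2.75-fold) and Cst9 at 3.62 and 4.97 (19.7-fold). Beside these, 10 of 12 late spermatid genes were also called higher in epididymis than in SVF (background 10.2%). That list had a median of 1.84, a lowest mean of 1.32 and a highest of 2.73 ± 0.07 (Akap4). The mean of Cst9, 4.30 ± 0.96, lay above that range, and that of Cst13, 1.46 ± 0.02, within it. Whether sperm RNA takes part in the epididymal ratios of Cst9 and Cst13 was not tested.

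Cst11 (CRES2), a secreted epididymal cystatin, showed the reverse. It had 5.23 and 3.55 in epididymis over SVF (21.0-fold higher) and 5.15 and 3.60 in epididymis over testis (20.7-fold higher). Its arrays of testis over SVF disagreed, at 1.10 and -0.87. Cst11 was thus high in epididymis alone, with no order between testis and SVF. Cst12 (CRES3) was called higher than in SVF in both testis, at 4.79 and 3.14 (15.6-fold), and epididymis, at 3.99 and 3.58 (13.8-fold). The direct arrays put it 4.29-fold higher in epididymis than in testis, at 2.24 and 1.97, although its ratios over SVF in epididymis and testis, 3.78 ± 0.28 and 3.97 ± 1.17, lay closer together than the SD of the testis value.

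The cystatin cluster on chromosome 2 runs in the order Cstl1, Cst11, Cstdc1, Cst12, Cst8, Cst13, Cst9, Cstdc2, Cst3 and, farther along, Cst10. Of these 10 genes 9 were measured, 6 of them among the 32. The cystatin-like genes Cstl1, Cstdc1 and Cstdc2 fall outside the symbol rule, and Cstdc1 was described after its values were seen. Cstl1 stood at 4.21 and 4.27 in testis over SVF and at -3.20 and -4.02 in epididymis over testis, both called. Cstdc2, next to the testis-rich Cst9, stood at 7.84 and 5.43 in epididymis over SVF (99.2-fold higher) and at 6.01 and 5.82 in epididymis over testis (60.2-fold higher). The called direction in epididymis over testis therefore differed within the cluster. Cstl1, Cst13 and Cst9 were lower in epididymis, and Cst11, Cst12, Cstdc2 and Cst3 higher. The adjacent genes Cst13 and Cst9 shared a direction, as did Cstdc2 and Cst3, while Cst9 and Cstdc2 had opposite ones. Cstdc1, with -0.74 and -1.75, and Cst10 were not called in that comparison.

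**Figure D2:**
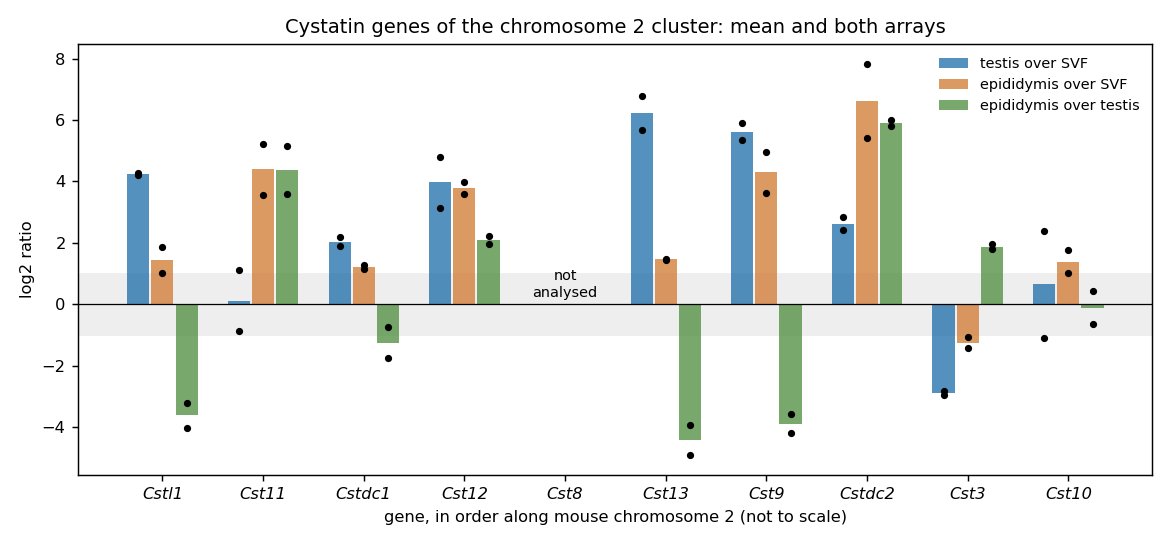
Log2 ratios (vertical axis) of the cystatin genes in their order along mouse chromosome 2, as the mean (bar) and both arrays (points) of each dye swap. The grey band is less than 2-fold. Green bars point down for Cstl1, Cstdc1, Cst13 and Cst9 and up for Cst11, Cst12, Cstdc2 and Cst3, with Cst10 near 0, and Cst3 is the gene with negative ratios over SVF in both tissues.

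Cst3 (cystatin C), at the end of this run of genes, was called the same way as Ctsc, Ctss and Ctsz in every comparison. It went with its neighbour Cstdc2 in epididymis over testis only. It stood at -2.96 and -2.82 in testis over SVF (7.40-fold lower in testis), at -1.08 and -1.42 in epididymis over SVF (2.37-fold lower in epididymis) and at 1.80 and 1.95 in epididymis over testis (3.67-fold higher in epididymis). Cst7 (cystatin F), an inhibitor of cathepsin C in cytotoxic and myeloid cells, was called higher in SVF than in testis, at -1.81 and -1.55 (3.21-fold). In epididymis over SVF it had -0.91 and -2.19 and missed the threshold on 1 array. Cst10, described from cartilage, was called higher in epididymis than in SVF, at 1.75 and 1.03 (2.63-fold), while its arrays of testis over SVF gave 2.40 and -1.08. Cst6 (cystatin E/M), an epidermal cystatin, was called in no comparison, with means from 0.02 to 0.53.

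Of the stefins, Cstb (stefin B) stood at -3.10 and -3.64 in testis over SVF, or 10.3-fold lower in testis, and at 3.16 and 3.00 in epididymis over testis, or 8.47-fold higher in epididymis. Its ratio of epididymis over SVF, -0.80 and -0.87, was not called. Stfa3, from a mouse cluster of close stefin A copies, had -0.04 and -0.21 in testis over SVF, -0.91 and 1.62 in epididymis over SVF, and -0.63 and -2.88 in epididymis over testis. Neither of the last pairs passed the threshold on both arrays in 1 direction, and Stfa3 was called in no comparison.

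By the calls, 7 of the 32 genes were higher in SVF than in both other tissues: Cst3, Ctsb, Ctsc, Ctsk, Ctss, Ctsw and Ctsz. Another set of 7 was lower in testis than in both other tissues: Cst3, Cstb, Ctsc, Ctsd, Ctsh, Ctss and Ctsz. No share over all named genes was computed for either set, so these counts stand without a background. Cst3, Ctsc, Ctss and Ctsz are in both sets, and their means ran from high to low in SVF, epididymis and testis. Cstb, Ctsd and Ctsh had their one clear low point in testis. For Ctsd and Ctsh the ratio over SVF was above 0 in epididymis on both arrays and below 0 in testis on both arrays.

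Other lysosomal genes were set beside the cathepsins. Of 24 measured lysosomal enzymes, 13 were called lower in testis than in SVF and 2 higher (median -1.11), which is 54.2% and 8.33% of the list, where the backgrounds of all named genes are 16% and 20.7%. The neuraminidase gene Neu1 stood at -3.17 ± 0.41 and the mannosidase gene Man2b1 at -2.91 ± 0.03, while Galc, which degrades galactosylceramide, and the arylsulfatase gene Arsa were higher in testis, at 2.44 ± 0.17 and 2.15 ± 0.28. The same list had, in epididymis over SVF, 3 called higher in SVF (12.5%, background 8.68%) and none higher in epididymis (median -0.32). Against testis, 8 were called higher in epididymis, including Neu1 (3.64 ± 0.66), and 2 lower (median 0.69), or 33.3% and 8.33% against backgrounds of 14.3% and 18%.

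Of 20 lysosomal membrane and sorting genes, 13 were called lower in testis than in SVF and none higher (median -1.81), or 65% against a background of 16%, with the membrane protein gene Lamp2 at -4.26 ± 0.13. Set against SVF, 2 were called higher in epididymis, the sorting receptor gene Sort1 (3.70 ± 0.85) and the cholesterol carrier gene Npc2 (2.53 ± 0.82), and 4 higher in SVF, or 10% and 20% against backgrounds of 10.2% and 8.68%. Against testis, 13 were called higher in epididymis and none lower (median 1.53), or 65% against a background of 14.3%. Tfeb, the gene of the factor that binds the CLEAR element, was called in neither testis over SVF (-0.23 ± 0.42) nor epididymis over testis (-0.55 ± 0.97).

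Of 15 measured regulators and relatives of cysteine cathepsins outside the symbol rule, 3 were called higher in testis and 5 higher in SVF in testis over SVF (20% and 33.3%, backgrounds 20.7% and 16%). For epididymis over SVF the counts were 4 higher in epididymis and 3 higher in SVF (26.7% and 20%, backgrounds 10.2% and 8.68%). Between epididymis and testis, 5 were called higher in epididymis and 2 higher in testis (33.3% and 13.3%, backgrounds 14.3% and 18%). The share higher in testis than in SVF was thus near that of all genes. Ctla2a, which encodes a propeptide-like inhibitor of mouse cysteine cathepsins, stood at -4.03 ± 0.14 in testis over SVF, -2.29 ± 0.26 in epididymis over SVF and 3.58 ± 0.04 in epididymis over testis, the same tissue order as Ctss. Lgmn, which encodes the asparaginyl endopeptidase that processes several cathepsins, was called lower in epididymis than in SVF (-2.08 ± 0.24). The liver-type cystatin relative Fetub was called higher in epididymis than in SVF (1.43 ± 0.48), and Ahsg lower in epididymis than in testis (-1.59 ± 0.27).

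**Figure D3:**
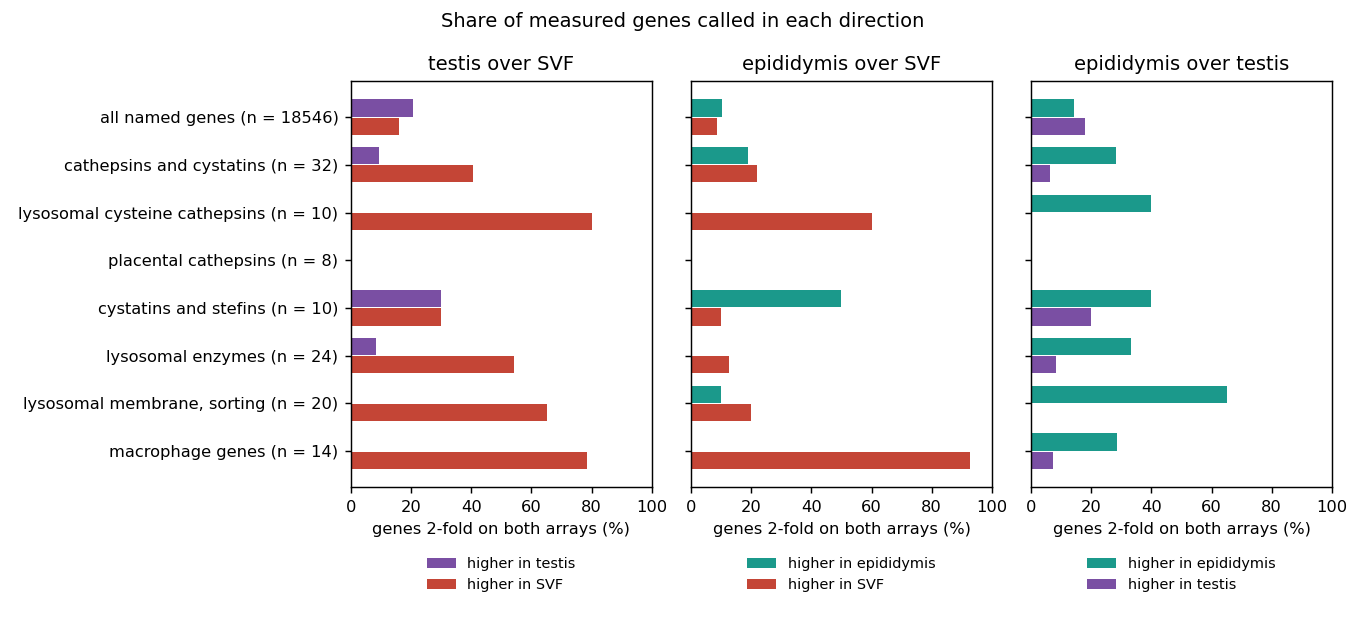
Percentage of measured genes called in each direction (at least 2-fold on both arrays), with 1 bar per tissue and the number of genes in brackets. The lysosomal cysteine cathepsins have 80% called higher in SVF than in testis and 60% higher in SVF than in epididymis, and the placental cathepsins have no bar.

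Markers of immune cells were counted in the same comparisons, with the share over all named genes at 16% for higher in SVF than in testis and 8.68% for higher in SVF than in epididymis. For higher in epididymis than in SVF that share was 10.2%. The cytotoxic lymphocyte list (10%) and the neutrophil and myeloid granule list (8.33%) were near it. Of 14 macrophage genes, 11 were called higher in SVF than in testis (78.6%), with Cd163 at -5.13 ± 0.34, and 13 higher in SVF than in epididymis (92.9%), with Mrc1 at -4.74 ± 0.42. Between epididymis and testis, 4 were called higher in epididymis (28.6%, background 14.3%) and 1 higher in testis (7.14%, background 18%). Of 10 antigen presentation genes, 9 were called higher in SVF than in testis and 8 higher in SVF than in epididymis, and Ctss was called the same way in both. Of 10 cytotoxic lymphocyte genes, 7 were called higher in SVF than in testis, as were Ctsw, Ctsc and Cst7. Against epididymis, 6 were called higher in SVF, as were Ctsw and Ctsc, and 1 higher in epididymis, the NK cell receptor gene Klrb1c (2.59 ± 0.21), while Cst7 was not called. Of 12 neutrophil and myeloid granule genes, 5 were called higher in SVF than in testis, as was Ctsg. Against epididymis, 6 were called higher in SVF and 1 higher in epididymis, the lactoferrin gene Ltf (2.67 ± 0.78), and Ctsg was not called. Of 7 osteoclast genes, 3 were called higher in SVF than in testis and 1 higher in SVF than in epididymis, where Ctsk was called in both. The files hold ratios and no levels, so no summed marker level can be given, and the part of these cells in the cathepsin ratios was not tested.

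The 3 dye swaps close a loop, so epididymis over testis can also be computed through SVF, and the gap between both routes would be 0 without error. It was at most 1 in size on the log2 scale for 24 of the 32 genes and larger for 8, with an SD of 1.15 over the 32 genes against 0.57 over all named genes. The direct and indirect log2 ratios lay close for Cst11 (4.37 and 4.27), Cst13 (-4.42 and -4.78), Ctsd (3.63 and 3.86) and Ctss (2.93 and 2.47). They lay far apart for Cst9 (-3.88 direct and -1.32 indirect) and Cst12 (2.10 direct and -0.18 indirect). The ratio of these 2 cystatins thus differs by more than 2 log2 units between the routes, and for Cst12 its direction rests on the direct arrays. Cathepsin B also differed in sign between the routes, at 0.95 direct and -0.36 indirect, so its order between epididymis and testis is not settled. The other genes with a gap above 1 were Cts6, Ctse, Ctsw, Ctsz and Stfa3, of which only Ctsz was called in epididymis over testis, and its routes gave 1.56 and 0.48.

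**Figure D4:**
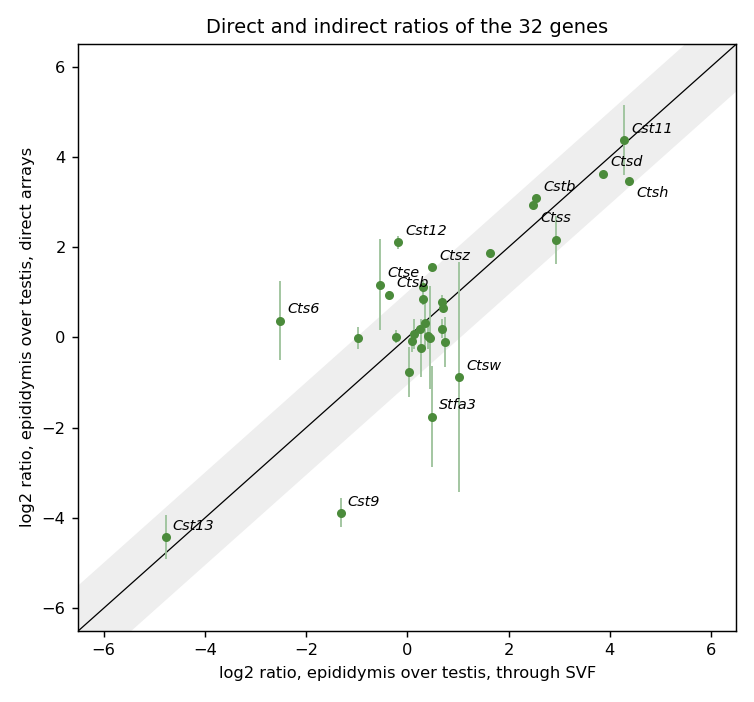
Log2 ratio of epididymis over testis on the direct arrays (vertical axis, mean with the range of 2 arrays as bar) against the same ratio computed through SVF (horizontal axis) for the 32 genes. The line marks equal values and the grey band a gap of at most 1. Cst13, Cst11, Ctsd and Ctss lie in the band, and Cst9, Cst12, Cts6 and Stfa3 lie farthest from it.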

How the data were processed

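Total RNA of 3 mouse tissues was hybridised on 6 two-colour arrays. The deposited values, 1 per probe on each array, are log ratios read here as log2. No source used here gives the authors' background correction, normalization, base or direction, and spot intensities were not used here. The sign of the dye-exchanged arrays was turned, so that positive means higher in the numerator tissue. Probe names came from the platform annotation of 21112 probes. Of these, 20456 were updated by gene ID and 220 by symbol to the RefSeq table of GRCm38.p6, 249 kept their annotated name, and 30 with several genes and 157 with a non-mouse symbol were left unnamed. A gene's value is the mean over its probes, and its ratio the mean of the 2 arrays. The rule for calls was tested before use on simulated arrays with normal noise of the same size for all probes of a comparison. Dye effects and larger errors of single probes were not simulated, so that test does not cover them. Calculations used Python 3.11.15 with pandas 2.3.3.

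Every one of the 32 genes may be named, and of each of 16 further gene lists (178 of 200 entries measured) the 2 highest and 2 lowest ratios per comparison. Genes and lists were chosen with earlier results of these data known. The alternatives were median centring, a least-squares loop estimate, 2-fold on the mean, 4-fold on both arrays, the first probe, genes on all arrays, natural logarithms, updated symbols and each array left out.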

Additional observations from a re-analysis of the deposited data

Results flagged for a closer look

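For 4 of the 32 genes the ratio over SVF had opposite signs in epididymis and in testis on all 4 arrays concerned, and the difference was not tested because each tissue is 1 RNA sample. The share of all named genes that meet this sign rule was not computed, so the count stands without a background. The log2 ratio of epididymis over SVF minus that of testis over SVF was 4.38 for Ctsh, 3.86 for Ctsd, 0.69 for Cts7 and -2.51 for Cts6. The direct arrays of epididymis over testis gave 3.48 ± 0.09 for Ctsh, 3.63 ± 0.07 for Ctsd and 0.78 ± 0.21 for Cts7. They gave 0.37 ± 1.24 for Cts6, the opposite sign, and Cts6 and Cts7 were called in no comparison.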

How the results depend on the processing

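Median centring, the loop estimate and the first probe could turn the sign of a called mean ratio, and none of the 40 called differences turned under these 3. The other settings keep its sign by construction. Counts of called genes stayed within 1.5 times under median centring, the loop estimate, the first probe, genes on all arrays and updated symbols. The count higher in SVF than in epididymis was 7, and 11 by 2-fold on the mean alone and 12 with natural logarithms. At 4-fold on both arrays, the calls toward epididymis were 3 instead of 6 over SVF and 5 instead of 9 over testis. Without replicate 1 or 2, counts ranged from 4 to 5 (higher in testis than SVF), 14 to 16 (SVF over testis), 6 to 7 (epididymis over SVF), 10 to 11 (SVF over epididymis), 11 to 14 (epididymis over testis) and were 4 both times (testis over epididymis), since the rule then asks 1 array. Median centring ended the call of Ctsd in epididymis over SVF and the first probe that of Ctso in testis over SVF. Read as natural logarithms, every printed fold becomes larger, by over 1.5 times for the large ones (in testis against SVF, Ctsc 394-fold instead of 62.9-fold lower and Cst13 511-fold instead of 75.4-fold higher). No paired analysis was possible because every tissue is represented by 1 RNA, hybridised again with the dyes exchanged. Signal over background, which limits ratios of dim genes, was not analysed here.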
